A study of Mus musculus with 6 samples.

Results

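Expression of 9 genes of T cell homing, adhesion and tissue egress was examined in regulatory T (Treg) cells of wild-type (WT) mice and of mice lacking HDAC11 in their Tregs. The genes were grouped by their function and comprised S1pr1, Selplg, Cd44, Cd69 and the integrin subunit genes Itgae, Itgb7, Itga4, Itgal and Itgb1. All probe sets that the array annotation assigns to one of these symbols alone were taken, which gave 16 of the 22626 tested probe sets and 8 of 12393 genes. Cd69, which encodes an early activation antigen that retains lymphocytes in tissue, had no probe set under its symbol in the annotation used and was not analysed here. The WT group was C57BL6, and the deleted group was fl-HDAC11/Foxp3cre, hereafter HDAC11-/-, in which Cre recombinase produced together with Foxp3 removes the floxed gene in Tregs. The WT label names no Cre, so that carriage of Cre and loss of HDAC11 cannot be told apart. The study used young adult male mice on the C57BL/6 background. Both groups consisted of 3 arrays of CD4+CD25+ Tregs separated by magnetic beads, a selection that enriches Tregs and can leave other CD25-bearing or bead-bound cells in the fraction. The labels do not tie arrays to individual mice, and the p-values therefore describe the spread between these samples alone, which may be technical.

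Circulating T cells enter lymph nodes and inflamed tissue by rolling on selectins, arresting through integrins and crawling through the vessel wall. PSGL-1, the product of Selplg, is the main selectin ligand of leukocytes, and CD44 binds hyaluronan as well as selectins. Integrins are pairs of an alpha and a beta chain. LFA-1 is made of the chains of Itgal and Itgb2 and binds ICAM-1, the chain of Itga4 pairs with that of Itgb7 to bind MAdCAM-1 of gut vessels or with that of Itgb1 to bind VCAM-1, and the chain of Itgae, CD103, pairs with that of Itgb7 to bind E-cadherin on epithelium. S1PR1 senses sphingosine 1-phosphate and guides T cells out of lymphoid tissue, and its gene is a known target of the transcription factor KLF2. CD103 and high CD44 mark effector and tissue Tregs.

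The arrays separated by genotype. The correlation between arrays was 0.997 to 0.999 within a genotype and 0.985 to 0.988 between genotypes, with no array standing apart. The values are RMA expression on the log2 scale, in which 1 unit is a 2-fold difference. Differences are given as log2 HDAC11-/- minus WT. For Hdac11 the difference was -0.12 in its brighter probe set (SE 0.073, limma adjusted p = 0.222), and no source used here places the probes relative to the deleted part, so that these values do not check the labels. Bacterial control probe sets served as the measure of background, and Foxp3 did not exceed them on any array. The T cell genes Cd3e, Cd3d, Cd5 and Thy1 were at WT log2 levels of 12.29, 12.99, 12.42 and 12.08.

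None of the 8 homing genes was called in either direction. A call required an adjusted p under 0.05 from limma and at least a 1.5-fold difference, or 0.58 on the log2 scale, and the probe set brightest on average over the 6 arrays stood for its gene. At this threshold 3.46% of all genes were called higher and 3.72% lower, and 3.87% and 5.03% of all probe sets. SAM, the test named in the study's methods, rests on the same differences, all of them under 1.5-fold. It could therefore call none of the 16 homing probe sets. At an unadjusted p under 0.05 limma gave 1 higher and 5 lower, against 26.4% and 27.3% of all probe sets. The 95% interval of the difference lay inside 1.5-fold in both directions for all 16 homing probe sets, against 17862 of the 22626 probe sets overall. By the adjusted p alone, without a fold threshold, 3 of the 8 genes were lower in HDAC11-/- Tregs and none higher, where the share of all genes was 23.2% lower and 22.9% higher. The same rule gave 5 of 16 homing probe sets lower and none higher, against 22.4% lower and 23.2% higher among all probe sets. Hence the count of lower homing genes was near the share of all genes. The median log2 fold change was -0.08 over the 8 genes and -0.04 over all genes, and the median of the sizes regardless of sign was 0.08 against 0.19. The 3 lower genes were Itga4, Itgae and Itgb7. Of 12 other leukocyte integrin subunits measured, 4 were also lower by the adjusted p and none higher.

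**Figure D1:**
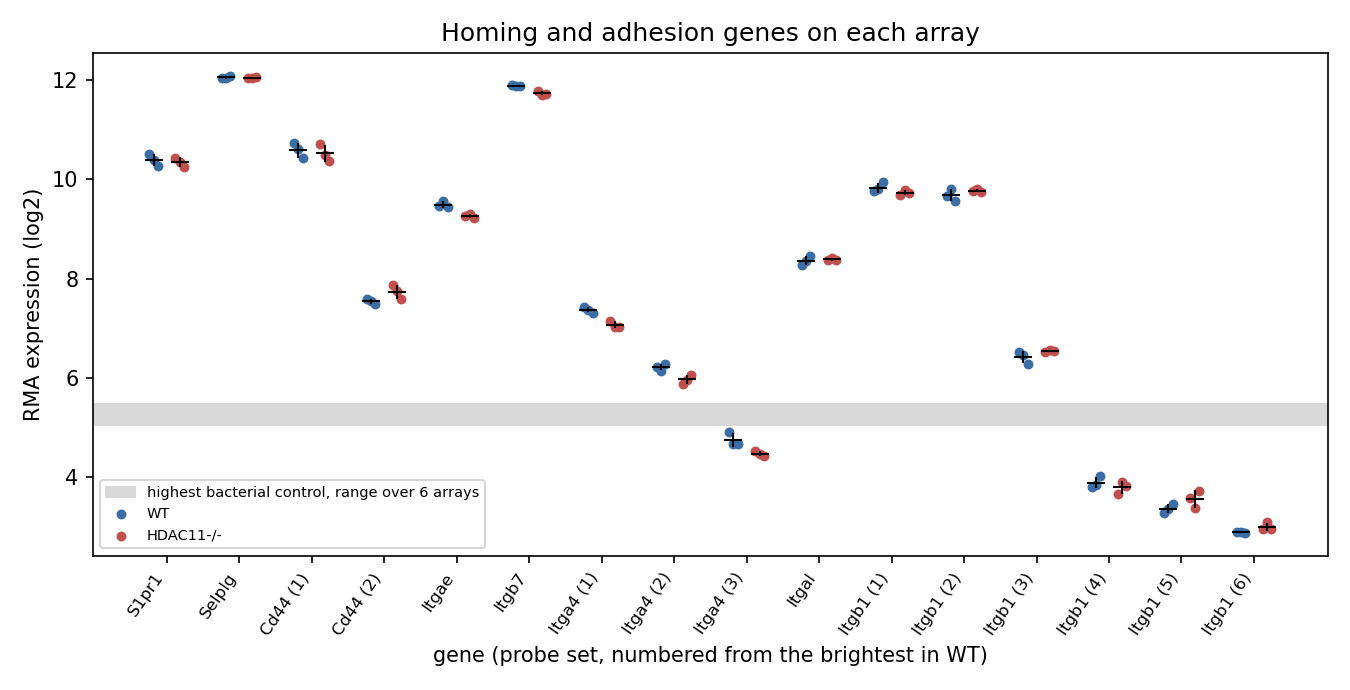
RMA expression (log2) of the 16 homing and adhesion probe sets on each of the 3 WT (blue) and 3 HDAC11-/- (red) arrays, with the mean and SD of each genotype as black marks and the range of the highest bacterial control as a grey band. The groups differed little at every level from Selplg, near 12.05, to the 4 probe sets of Itga4 and Itgb1 below the band, and those of Itga4, Itgae and Itgb7 were lower on every HDAC11-/- array.

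S1pr1, the egress receptor, had a single probe set at log2 levels of 10.52, 10.39 and 10.26 in WT and 10.44, 10.36 and 10.24 in HDAC11-/- Tregs. The groups overlapped, and the spread within each genotype was larger than the difference between them. The log2 difference was -0.045 (SE 0.083, 95% interval -0.24 to 0.15, adjusted p = 0.686). Klf2, in contrast, was at 11.94, 11.93 and 11.90 in WT and 13.03, 12.99 and 13.00 in HDAC11-/- Tregs, 1.09 higher on the log2 scale (adjusted p = 1.06e-05). A rise of S1pr1 of that size lay outside its interval. Among 19 measured genes of the sphingosine 1-phosphate pathway, Klf2 and Sgpp1 were called higher by their brightest probe sets and none lower. The list median was -0.17, or 0.07 when the 3 genes within the bacterial range in both genotypes were left out. Dimmer probe sets were called for Gnai3, higher and within that range in WT, and for Acer2, lower and within it in both genotypes. Sgpp1, which encodes a phosphatase that degrades sphingosine 1-phosphate, had a log2 difference of 0.64 (SE 0.097, adjusted p = 0.00226) and a second called probe set at 0.75. S1pr4, a related receptor of lymphocytes named after its values were seen, was at 10.44, 10.42 and 10.44 in WT and 10.72, 10.71 and 10.71 in HDAC11-/- Tregs, higher by 0.28 (SE 0.041, adjusted p = 0.00193), which did not reach the fold threshold. By the adjusted p alone 5 genes of the pathway were higher and 7 lower.

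Selplg, which encodes PSGL-1, was the brightest of the homing probe sets and the one with the smallest difference. It lay at 12.04, 12.03 and 12.08 in WT and 12.04, 12.05 and 12.05 in HDAC11-/- Tregs, with a log2 difference of -0.0080 (SE 0.042, 95% interval -0.11 to 0.093, adjusted p = 0.892). The 3 HDAC11-/- values fell within the range of the WT values. Of 22 measured selectin genes and genes of selectin-ligand glycosylation, limma called 0 higher and 0 lower, while 6 were higher and 2 lower by the adjusted p alone. The list median was 0.13, and 8 of the 22 genes lay within the bacterial range in both genotypes. The enzymes that follow were named after their values were seen. Of the sialyltransferase genes, St3gal4 was higher by 0.46 (adjusted p = 0.000647), while St3gal3 and St3gal6 were lower, at -0.41 (adjusted p = 0.00405) and -0.33 (adjusted p = 0.00628). The other genes that were higher by the adjusted p were Tpst1, a tyrosine sulfotransferase, at 0.37, the O-glycan genes C1galt1, C1galt1c1 and Galnt1 at 0.20, 0.17 and 0.19, and Gcnt1, which lay within the bacterial range in WT.

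Cd44 had 2 probe sets that differed in sign. The brighter was at 10.72, 10.60 and 10.42 in WT and 10.71, 10.49 and 10.38 in HDAC11-/- Tregs, an overlap over nearly the whole range, with a log2 difference of -0.054 (SE 0.11, 95% interval -0.31 to 0.21, adjusted p = 0.713). The dimmer, whose suffix marks probes shared by several transcripts of 1 gene, was at 7.58, 7.55 and 7.50 in WT and 7.87, 7.75 and 7.59 in HDAC11-/- Tregs. Its groups were separate by a margin smaller than their spread, and its log2 fold change of 0.19 (SE 0.078, adjusted p = 0.0850) did not pass. It passed at 0.0484 with an intensity trend and robust prior, at 0.0429 among the brighter probe sets and at 0.0247 without HDAC11-/- replicate 3, and its adjusted p ranged from 0.0247 to 0.220 over the alternatives on the deposited scale. Of 18 genes of CD44 linkage, shedding and hyaluronan, Hmmr was called higher at 0.93, and Stab2, a scavenger receptor for hyaluronan, was called lower. These calls are by the brightest probe set, and by any probe set 2 genes were called higher and 1 lower. Stab2 lay within the bacterial range on all HDAC11-/- arrays, so no fold is given. Hmmr encodes a hyaluronan receptor that also acts at the mitotic spindle, and 18 of 19 measured genes of mitosis were called higher on the same arrays. By the adjusted p alone 7 of the 18 genes were higher, such as the ezrin, radixin and moesin genes Ezr, Rdx and Msn at 0.22, 0.27 and 0.17, and 2 were lower.

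Itga4, the alpha chain of the receptors for MAdCAM-1 and VCAM-1, was lower in both of its probe sets above the bacterial range, by less than the fold threshold. The brightest was at 7.42, 7.38 and 7.32 in WT and 7.15, 7.02 and 7.03 in HDAC11-/- Tregs, a fold of 0.811. The groups did not overlap. Of the 16 homing probe sets 5 were lower and 3 higher without overlap, against 28.5% and 28.2% of all probe sets. For Itga4 the log2 difference was -0.30 (SE 0.057, 95% interval -0.44 to -0.17, adjusted p = 0.00556). The second probe set was at 6.23, 6.15 and 6.28 in WT and 5.88, 5.96 and 6.07 in HDAC11-/- Tregs and had a log2 difference of -0.25 (SE 0.066, adjusted p = 0.0213). The third lay within the bacterial range on all 6 arrays, so its value of -0.28 is not read as a level of Itga4. The brightest probe set passed the adjusted p also by SAM (0.0146), and without each array in turn its adjusted p lay between 0.00787 and 0.0260. The second lost it in 4 of the 6 fits that left out an array, without WT replicates 1 and 3 and without HDAC11-/- replicates 1 and 2, at adjusted p up to 0.0660.

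Itgae, which encodes CD103, was at 9.45, 9.57 and 9.44 in WT and 9.27, 9.31 and 9.22 in HDAC11-/- Tregs. Every HDAC11-/- array lay below every WT array, and the log2 difference was -0.22 (SE 0.055, 95% interval -0.35 to -0.092, adjusted p = 0.0159), a fold of 0.857. It missed the threshold in SAM at 0.0592 and without HDAC11-/- replicate 3 at 0.0590, within a range of 0.00122 to 0.0592 over the alternatives on the deposited scale.

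Itgb7, the beta chain shared by the receptors for MAdCAM-1 and E-cadherin, was at 11.90, 11.87 and 11.87 in WT and 11.78, 11.70 and 11.72 in HDAC11-/- Tregs. The groups did not overlap, and the log2 difference was -0.15 (SE 0.045, 95% interval -0.26 to -0.041, adjusted p = 0.0340), a fold of 0.902. This was the least stable of the 3 lower genes. It missed the threshold in SAM at 0.145, with the replicate number as a replicate block at 0.0626, on the scale of the bacterial controls at 0.0706 and in 5 of the 6 fits that left out an array, all but the one without HDAC11-/- replicate 1. Its adjusted p ranged from 0.000717 to 0.145 over the alternatives on the deposited scale.

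**Figure D2:**
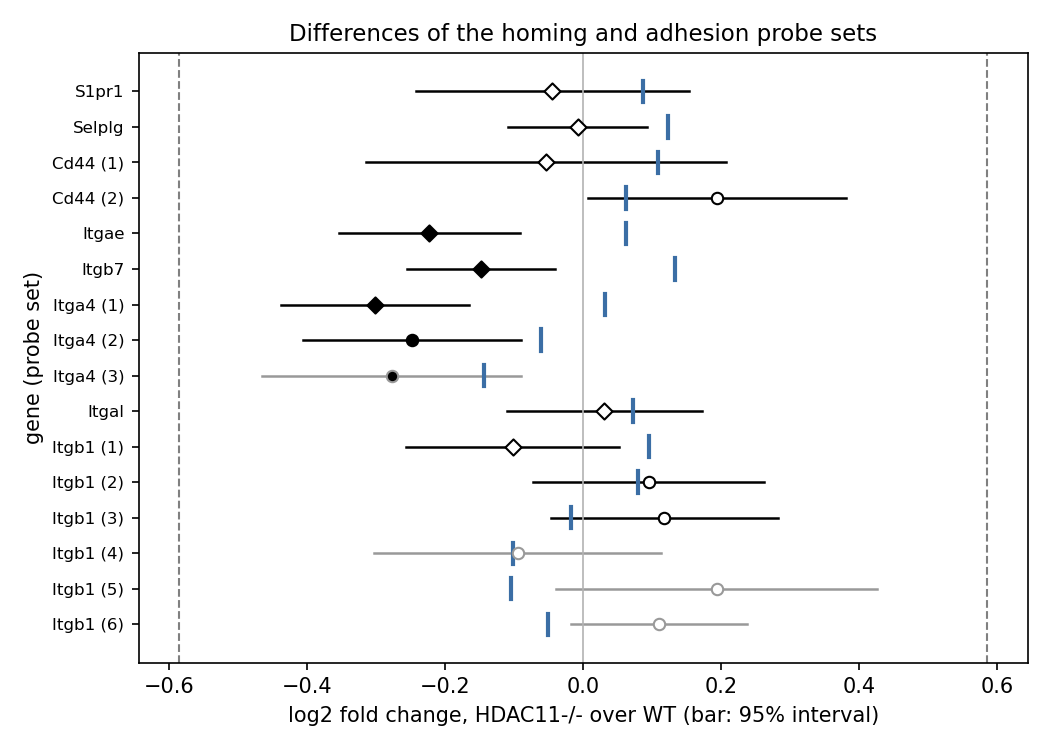
Log2 difference (3 HDAC11-/- minus 3 WT arrays) of the 16 homing and adhesion probe sets with 95% intervals, diamonds where a probe set is the brightest of its gene, filled where the adjusted p was under 0.05 and grey where both genotypes lay within the bacterial range. Blue ticks give the median of the 501 probe sets of like brightness and dashed lines mark 1.5-fold, which no interval reaches.

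The promoters of Itga4 and Itgb7 are shown because both genes are chains of the gut-homing integrin and were lower by the adjusted p. The RefSeq promoter table, of build GRCm38.p6, held 4 of the 9 homing genes, which were Itga4, Itgb7, Itgb1 and Cd44. Each window runs from 250 bases before to 50 bases after the start of the gene. Capitals mark CACCC or its reverse complement GGGTG, the core letters bound by KLF factors, which were searched because Klf2 was called higher. The window of Itga4 is chr2:79255176-79255475 on the plus strand and that of Itgb7 is chr15:102231886-102232185 on the minus strand.
Itga4: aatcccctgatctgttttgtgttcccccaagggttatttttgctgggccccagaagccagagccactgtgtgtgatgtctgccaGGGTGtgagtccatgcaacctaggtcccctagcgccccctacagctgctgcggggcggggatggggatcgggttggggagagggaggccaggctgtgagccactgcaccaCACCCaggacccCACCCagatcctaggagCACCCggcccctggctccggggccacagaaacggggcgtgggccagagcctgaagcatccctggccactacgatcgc
Itgb7: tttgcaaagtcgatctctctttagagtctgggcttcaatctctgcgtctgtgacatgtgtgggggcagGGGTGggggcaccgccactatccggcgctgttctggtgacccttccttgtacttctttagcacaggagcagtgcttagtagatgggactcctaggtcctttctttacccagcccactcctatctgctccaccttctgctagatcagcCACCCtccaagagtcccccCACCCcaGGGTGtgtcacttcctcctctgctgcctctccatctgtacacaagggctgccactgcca

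Each of these windows held 4 matches, on both strands together, as 3.1% of the 32851 promoter windows did with 4 or more, and 57.5% held at least 1. The window of Itgb1 held 2 matches and that of Cd44 none. The AP-1 letters TGACTCA and TGAGTCA, searched because the AP-1 genes Fos and Jun were higher, were in none of the 4 windows, so no overlap with a KLF match arose, and in 5.2% of all windows. A match is a description of the letters, and binding was not measured.

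Itgal, the alpha chain of LFA-1, was at 8.27, 8.35 and 8.46 in WT and 8.38, 8.42 and 8.37 in HDAC11-/- Tregs. The groups overlapped, with a log2 difference of 0.030 (SE 0.059, 95% interval -0.11 to 0.17, adjusted p = 0.701). Its partner Itgb2, named because LFA-1 needs it, was at 12.53, 12.53 and 12.55 in WT and 12.31, 12.31 and 12.31 in HDAC11-/- Tregs. It differed by -0.23 on the log2 scale (adjusted p = 0.00413), under the fold threshold.

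Itgb1, the beta chain of many matrix receptors, had 6 probe sets, of which 3 lay within the bacterial range on all arrays. The brightest was at 9.76, 9.80 and 9.94 in WT and 9.68, 9.78 and 9.73 in HDAC11-/- Tregs, with a log2 difference of -0.10 (SE 0.065, adjusted p = 0.238). The second, nearly as bright, was at 9.67, 9.81 and 9.56 in WT and 9.76, 9.81 and 9.75 in HDAC11-/- Tregs, with a log2 difference of 0.095 (SE 0.070, adjusted p = 0.309). The groups overlapped in both, and the probe sets gave opposite signs. The third was at 6.53, 6.46 and 6.29 in WT and 6.53, 6.56 and 6.54 in HDAC11-/- Tregs. Its groups were separate only in the third decimal, and the difference was 0.12 (adjusted p = 0.206). Its suffix marks probes that may also bind other transcripts.

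Whether partner chains moved by different amounts was tested on the difference of their log2 values on each array, centred on the WT mean, with exact two-sided permutation tests over the 3 against 3 arrays, whose smallest p is 0.1. The difference of Itga4 and Itgb7 was 0.03, 0.02 and -0.04 in WT and -0.12, -0.17 and -0.17 in HDAC11-/- Tregs. All HDAC11-/- arrays lay below all WT arrays, a change of -0.15 (exact p = 0.1, adjusted p = 0.2 over 4 pairs). For Itgal and Itgb2 the values were -0.09, 0.00 and 0.09 in WT and 0.26, 0.29 and 0.24 in HDAC11-/- Tregs. They were again separate, and the change was 0.26 (exact p = 0.1, adjusted p = 0.2). The pair of Itgae and Itgb7 differed by -0.074 (exact p = 0.3, adjusted p = 0.3) with overlapping groups, and by -0.027 without WT replicate 2 and -0.11 without HDAC11-/- replicate 2. The pair of Itga4 and Itgb1 differed by -0.20 (exact p = 0.2, adjusted p = 0.267), also with overlap. With the mean of all probe sets of each gene, which takes in those within the bacterial range, the latter was -0.33 and the groups were separate (exact p = 0.1). With these arrays none of the 4 pairs could reach a p under 0.05.

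**Figure D3:**
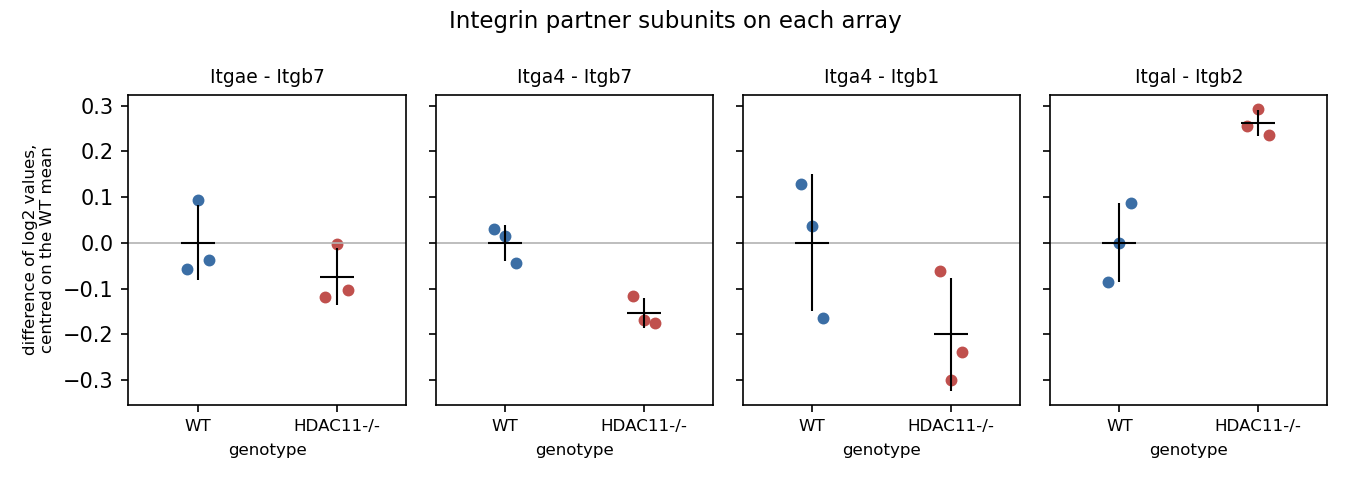
Difference of the log2 values of an alpha and a beta chain on each array, centred on the WT mean of the pair, black marks giving the genotype mean and SD (n = 3). Itga4 against Itgb7 lay at -0.17 to -0.12 on the HDAC11-/- arrays, and Itgal against Itgb2 was at 0.24 to 0.29.

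Other genes of the same processes were rarely called, though some differed by more than any homing gene. Of 12 other leukocyte integrin subunits measured, none was called by its brightest probe set, and by the adjusted p alone 4 were lower and none higher. These were Itgb2, Itgb5, Itgax and Itga5, the last 3 at log2 differences of -0.41, -0.39 and -0.29. The list median was -0.22, or -0.23 without the 3 genes within the bacterial range in both genotypes. Dimmer probe sets were called for Itgav, higher and within that range in WT, and for Itgb5, lower and within it in both genotypes. Of 28 genes of integrin activation and linkage to the cytoskeleton, only Rasgrp1 was called by its brightest probe set, 0.371-fold of WT (adjusted p = 2.57e-05). By any probe set 2 genes were called lower. By the adjusted p alone 4 were higher and 7 lower, with a median of -0.08. Rasgrp1 encodes an exchange factor that activates Ras after T cell receptor signals. Of 28 other adhesion molecules of T cells, only Slamf6 was called, at -0.73 (adjusted p = 6.87e-05), with a list median of -0.07. Of 10 measured integrin ligands, only Vcam1, a gene of macrophages and stroma, was called, and it was higher (adjusted p = 0.00232). It was at 4.58, 4.80 and 5.41 in WT and 6.41, 6.29 and 6.14 in HDAC11-/- Tregs. Of the WT arrays only replicate 3 lay above its highest bacterial control, so no fold is given.

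Chemokine receptors also direct T cell traffic. Of 18 measured, Cxcr4, Ccr8 and Ccr10 were called higher and Ccr6 lower. Among all genes 3.46% were called higher and 3.72% lower, and the absence of calls among the 8 homing genes was near these shares. Cxcr4, which holds lymphocytes in bone marrow and lymphoid niches, was at 8.99, 9.07 and 8.86 in WT and 11.61, 11.62 and 11.62 in HDAC11-/- Tregs, 6.23-fold higher (adjusted p = 2.29e-06). Ccr8 and Ccr10 had log2 differences of 0.96 and 0.85, and Ccr6 of -1.07. Ccr7, the lymph node homing receptor, was at 0.14 (SE 0.072, adjusted p = 0.156). Of 19 measured genes of effector or tissue Tregs, 4 were called higher (Gzmb, Il10, Klrg1 and Ccr8) and none lower, with a median of 0.17. Of 12 genes of central or resting T cells none was called by its brightest probe set, while 2 were called lower by any probe set. By the adjusted p alone 4 were lower and 1 higher, and the median was 0.10.

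**Figure D4:**
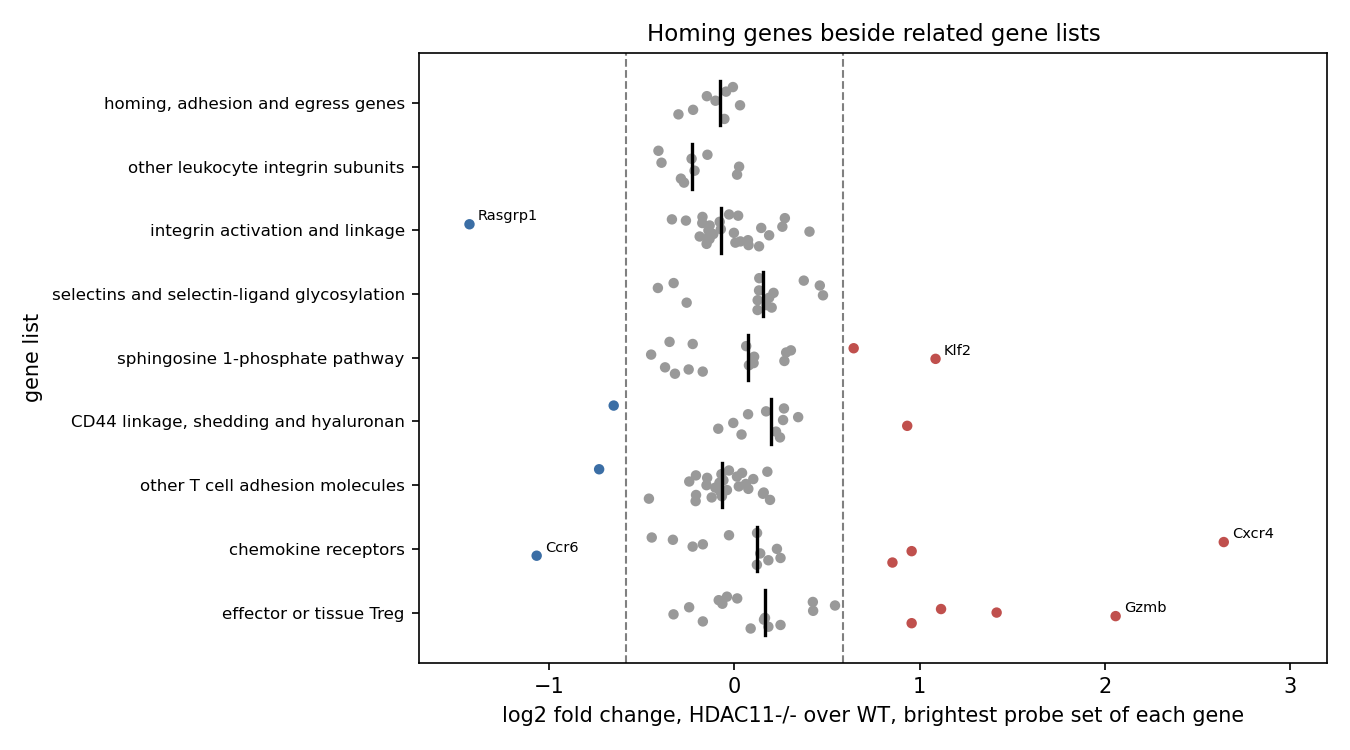
Log2 fold change (HDAC11-/- over WT) of the brightest probe set of each gene in the homing list and 8 related lists, without genes within the bacterial range in both genotypes. Red and blue points were called higher or lower, vertical bars are list medians and dashed lines mark 1.5-fold. No homing gene was called, while Klf2, Cxcr4 and Gzmb stand at 1.09, 2.64 and 2.06.

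Markers of other cells moved with genotype on the same arrays. Itga4, Itgb7 and Itgae are also expressed by B cells, dendritic cells, NK cells or CD8 T cells. Of 11 measured B cell markers 5 were called lower and none higher by their brightest probe sets, which also stand for the lists that follow. By any probe set 6 were called lower and 1 higher. The summed linear level of the 11 was 11756 to 12248 in WT and 10643 to 10744 in HDAC11-/-. Of 13 dendritic cell markers 5 were lower, with sums of 6346 to 6533 and 3299 to 3349. Of these 13 markers 3 lay within the bacterial range in both genotypes, namely Xcr1, Clec10a and Cd209a. By the adjusted p alone 2 of the 13 were higher and 7 lower. Those called lower included the MHC class II genes H2-Aa, H2-Ab1 and H2-Eb1. Of 12 CD8 T and NK cell markers 4 were lower and 1 higher, with sums of 2888 to 2975 and 2238 to 2363, and of 7 Th17 and innate-like markers 4 were lower, with sums of 4384 to 4555 and 1863 to 1894. Of 14 monocyte and macrophage markers 6 were higher and none lower, with sums of 402 to 432 and 524 to 575, and 7 lay within the bacterial range in both genotypes. Of 9 neutrophil markers 2 were higher, with sums of 228 to 253 and 328 to 345, and 4 lay within the bacterial range in both genotypes. The 7 T cell markers, none called, had sums of 33487 to 34273 and 33868 to 34482, and the 7 Treg markers 14984 to 15478 and 15826 to 16465. No Treg marker was called either, and by the adjusted p alone 1 was higher and 3 lower. The median log2 fold change of the Treg markers was -0.0069, or -0.10 without the 1 within the bacterial range in both genotypes. None of the 7 platelet and erythroid or 9 endothelial and stromal markers was called by its brightest probe set. Of these, 3 and 5 lay within the bacterial range in both genotypes. By the adjusted p alone 1 platelet and erythroid marker was lower, and 1 endothelial and stromal marker was higher and 3 were lower. A dimmer probe set was called lower for 1 endothelial and stromal marker. The part of these other cells in the lower Itga4, Itgae and Itgb7 was not tested. In bulk RNA fewer cells of a type and less RNA per cell cannot be told apart. Immediate early genes, which respond to stimulation and to cell handling, moved as well, with 17 of 28 called higher and none lower, and their part in the homing genes was not tested.

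The differences of the homing genes are small against the choice of scale. RMA equalizes the distributions, and the median log2 fold change of the 501 probe sets of like brightness lay between 0.03 and 0.13 for the brightest probe sets of the 8 homing genes, each of which lay below it. Scaling the arrays on the mean of 13 reference genes, 5 of which were higher by the adjusted p on the deposited scale, lowered every log2 fold change by 0.13, and scaling on the 27 bacterial controls raised it by 0.02. Scaling on the 3 cre control probe sets, which fell by 0.48 from WT to HDAC11-/-, raised it by that amount. Their mean was at log2 14.26 to 14.29 on the WT and 13.77 to 13.80 on the HDAC11-/- arrays. They belong to the array controls excluded from the tests and are not read as a level of Cre in the cells. Itga4, Itgae and Itgb7 were lower than in WT on the deposited scale, at -0.44, -0.36 and -0.28 on the reference genes and at -0.28, -0.20 and -0.12 on the bacterial controls, and higher on the cre scale, at 0.18, 0.26 and 0.33. These scalings add 1 number to all values of an array, so they leave the differences between partner chains unchanged. A shift that varies with brightness could change them. The median of like brightness was 0.03 for the brightest probe set of Itga4 and 0.13 for that of Itgb7. On the scale of reference genes the brightest probe sets of Selplg and Itgb1 also passed as lower, at -0.14 (adjusted p = 0.0332) and -0.24 (adjusted p = 0.0208).

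**Figure D5:**
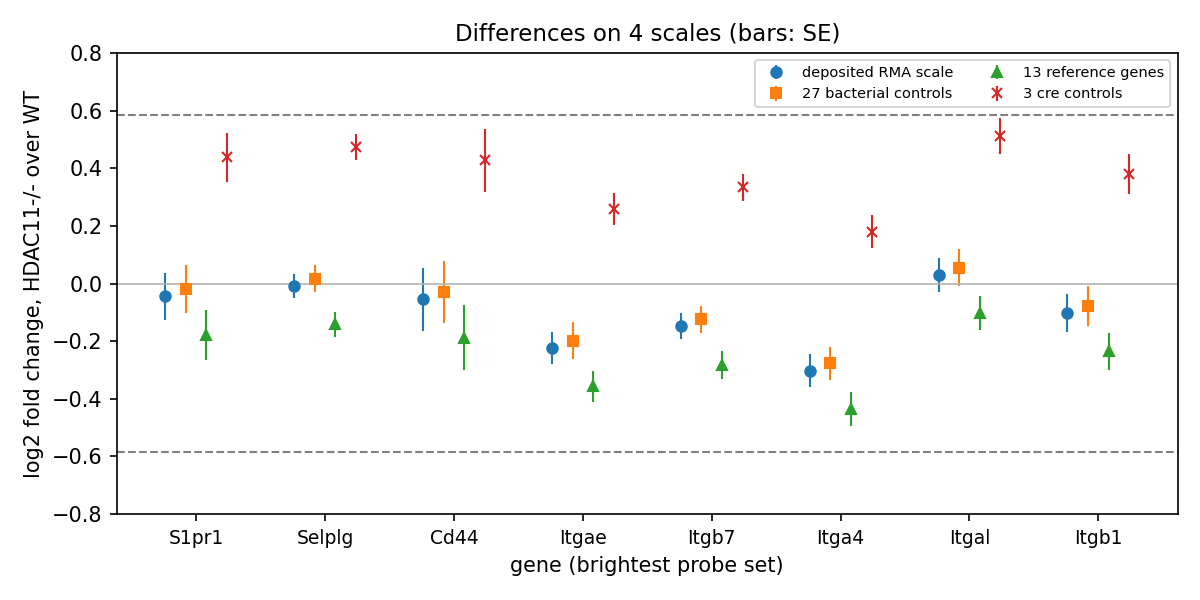
Log2 fold change (HDAC11-/- over WT, bars show the SE from limma) of the brightest probe set of each homing gene on the deposited RMA scale and after scaling the arrays on 27 bacterial controls, 13 reference genes or 3 cre controls. Itga4, Itgae and Itgb7 are below 0 on the first 3 scales and above it on the cre scale, and dashed lines mark 1.5-fold.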

How the data were processed

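CD4+CD25+ Tregs were profiled on Affymetrix Mouse430A arrays, 3 per genotype. The authors amplified and biotin-labelled the RNA, normalized the arrays by RMA in MAYDAY and deposited log2 values, 1 per probe set and array. These were used as deposited. No source used here names the probe definition version. The tests excluded 45 controls of the 22671 probe sets. The platform annotation gave 1 symbol to 20380 probe sets, several to 691 and none to 1555. All probe sets were fitted together by limma 3.58.1 (lmFit, then eBayes; R 4.3.3), the model holding genotype alone, with Benjamini-Hochberg adjustment over 22626 probe sets. SAM was coded after its published form and used all 20 possible labelings. The code was tested on data with known differences. Precision is limited by how many arrays there are. The SD within WT had a median of 0.090 and that within HDAC11-/- of 0.066. No detection calls were used. A probe set was taken as within the background range where no array of a group exceeded its highest bacterial control (5.06 to 5.48).

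The homing genes, gene lists and tests were chosen with earlier results of these data known. Named were all homing genes and, of each list, up to 4 called genes per direction, with others marked as chosen after their values were seen or named as partners, checks or examples. Same-numbered arrays had deviations that correlated at 0.23, -0.019 and 0.16. Those of replicates 1 and 3 were the highest among all pairs of a WT and an HDAC11-/- array. A pairing by number is therefore not settled, and no block was used in the main fit. Figures were drawn with matplotlib 3.10.9.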

Additional observations from a re-analysis of the deposited data

How the results depend on the processing

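No homing gene or probe set was called at 1.5-fold with array weights, on the scale of reference genes or bacterial controls, or without each array in turn. None was called either under SAM, a robust prior with an intensity trend, the replicate block, the brighter probe sets only or other ways to represent a gene. A 2-fold threshold, which is only stricter, gave none. SAM, that prior, the replicate block and the brighter probe sets only leave each log2 fold change as it was. The largest in size was -0.30, against a threshold of 0.58, so these settings could not give a call. With no fold threshold 5 probe sets and 3 genes were lower, a result of the rule itself. In an alternative added after the data were seen, scaling on the cre controls, 4 probe sets were called higher, 2 of them within the bacterial range. On that scale the sign turned for S1pr1 (0.44), Selplg (0.47), Cd44 (0.43), Itgae (0.26), Itgb7 (0.33), the 3 probe sets of Itga4 (0.18, 0.23 and 0.20) and 2 of Itgb1 (0.38 and 0.39). On the bacterial controls Selplg turned to 0.017. On the reference genes Itgal turned to -0.10 and 3 probe sets of Itgb1 to -0.039, -0.016 and -0.024. Without single arrays the log2 fold change ran from -0.11 to 0.020 for S1pr1, -0.018 to 0.0070 for Selplg, -0.15 to 0.021 for the brighter Cd44 and -0.014 to 0.078 for Itgal. None of the values that turned sign passed the adjusted p after the turn, other than on the cre scale. Selplg passed on the reference genes without a turn of sign, at -0.14 (adjusted p = 0.0332). The cause of these turns is the shift of scale or the left-out array itself.
The differences between partner chains kept their direction without each array. With the mean of all probe sets, those of Itga4 with Itgb7 and of Itga4 with Itgb1 kept theirs. The genes of the other pairs have 1 probe set each, so this setting could not change them. The exact test could reach no threshold in any of these cases.

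Whether the replicate numbers pair the arrays is not settled. The replicate block left the log2 fold change of Itgb7 at -0.15 with an adjusted p of 0.0626, and it moved no other homing probe set across the adjusted p threshold. WT replicates 1 and 3 correlated best with HDAC11-/- replicates of their own number and WT replicate 2 did not. Over the probe sets and alternatives 168 values kept their direction and side of the adjusted p threshold, 17 lost it, 12 gained it and 21 turned sign. Over all probe sets, scaling on reference genes gave 518 called higher and 1836 lower, on bacterial controls 979 and 1053 and on cre controls 7310 and 331, against 876 and 1138. With 3 arrays per genotype, differences as small as those of Itgb7 lie near the limit of what the spread allows, and for the 4 probe sets within the bacterial range no level is read.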
